A study of Mus musculus with 20 samples.

Results

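The stretch of mouse chromosome 7 within 10 Mb of the Trim12 probe (chr7:100356374-100356433) was examined by genotype and by position. Its members are the non-control probes whose mapped start lies between 90.4 and 110.4 Mb, leaving out the Mogat2 probe and 23 probes of genes named Trim plus a number (4 of which carry that name only after updating older names). This gave 557 of the 41174 probes on the array, for 415 genes, and 294 of them, for 194 genes, were bright enough to be tested. The centre was chosen by the difference between uninjured Myd88KO and uninjured wild-type tracheas at the Trim12 probe, so that comparison is given here as a description only, whereas the injured tracheas came from other mice.

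RNA from 20 whole tracheas of C57/Bl6 mice, labelled as 4 months old, was hybridized to 1-colour Agilent arrays, in 4 groups of 5: uninjured wild-type, uninjured Myd88KO, and wild-type and Myd88KO collected 3 days after 2% polidocanol, a detergent that strips the surface epithelium. The labels call the delivery intratracheal, and the study's methods describe it as oropharyngeal instillation. Myd88 is the adaptor through which most Toll-like receptors and the interleukin-1 receptors signal. According to the study's methods, the knockout strain was back-crossed to C57/Bl6JOlaHsd and bred knockout to knockout, while the wild-type mice formed a separate colony of that strain, so an effect of the knockout and an effect of colony cannot be told apart by these groups. Males and females were used, and the labels do not give the sex of a sample. The study's methods call the samples of a group biological replicates.

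An array probe is a short fixed sequence, and its signal depends on how much of the transcript is present and on how well the transcript pairs with it. This stretch of chromosome 7 holds the beta-globin cluster, the Trim family cluster next to it and a large cluster of olfactory receptor genes, with housekeeping and signalling genes on either side. Of the member probes, 170 were for olfactory receptors, which are mostly silent outside sensory neurons, and 21 of these were tested, against 273 of the 387 others.

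The sequences of the array's probes were not used here. The start regions of the genes that the results turn on are shown instead, as the 250 bases before the RefSeq transcription start in build GRCm38.p6, which is not stated to be the build of the array's own positions. Capitals mark matches on either strand to the GC box, the CCAAT box, the TATA box and a Stat-type motif, whose letters are given with their shares.
Pold3, chr7:100121503-100121752, minus strand: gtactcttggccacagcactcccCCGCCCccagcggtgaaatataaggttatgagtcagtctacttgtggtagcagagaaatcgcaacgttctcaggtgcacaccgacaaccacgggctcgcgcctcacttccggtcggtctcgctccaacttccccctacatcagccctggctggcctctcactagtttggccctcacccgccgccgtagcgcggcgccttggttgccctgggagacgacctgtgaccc
Rab6a, chr7:100607336-100607585, plus strand: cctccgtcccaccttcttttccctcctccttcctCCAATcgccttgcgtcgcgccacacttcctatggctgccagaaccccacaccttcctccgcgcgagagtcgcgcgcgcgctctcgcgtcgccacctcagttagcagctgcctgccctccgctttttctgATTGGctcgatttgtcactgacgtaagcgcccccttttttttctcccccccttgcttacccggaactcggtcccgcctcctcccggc
Nup98, chr7:102210167-102210416, minus strand: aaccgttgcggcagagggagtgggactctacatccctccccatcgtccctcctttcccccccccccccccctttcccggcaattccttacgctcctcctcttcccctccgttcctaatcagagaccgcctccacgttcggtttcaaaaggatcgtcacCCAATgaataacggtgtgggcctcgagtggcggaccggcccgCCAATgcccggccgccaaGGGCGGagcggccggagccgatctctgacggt
Hpx, chr7:105600117-105600366, minus strand: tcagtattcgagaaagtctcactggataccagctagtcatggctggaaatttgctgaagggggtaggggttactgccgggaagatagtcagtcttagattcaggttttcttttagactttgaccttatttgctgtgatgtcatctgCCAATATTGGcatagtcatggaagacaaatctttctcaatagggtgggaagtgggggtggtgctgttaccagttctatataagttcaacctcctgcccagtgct

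Pold3, Rab6a and Nup98 are shown because probes of these genes differed between genotypes, and Hpx because it had one of the largest rises after injury. The printed Pold3 and Nup98 windows held 1 GC box each, and the Rab6a, printed Nup98 and Hpx windows held 2 CCAAT matches each, on either strand. Bases G plus C made up between 61.6% and 64.4% of the printed Pold3, Rab6a and Nup98 windows and 44.8% of that of Hpx. RefSeq gives Nup98 another start, whose window (chr7:102209868-102210117) held 3 GC boxes, 0 CCAAT matches and 75.2% G plus C. Over 32851 RefSeq start regions of this length, 32.7% held the GC box (GGGCGG) and 33.8% the CCAAT box (those letters). The TATA box (TATAAA) was held by 12.4% and the Stat-type motif (TTCNNNGAA) by 7.02%. The latter pair was found in none of the 4 windows, which says only that these letters are not in them.

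All levels below are log2 of the processed signal minus the 75th percentile of the same array, so 1 unit is a doubling, and levels of different probes are not compared. Between 57.5% and 67.8% of probes were well above background on each array. The Myd88 probe read 2.08 ± 0.14 (SD, n = 5) in uninjured wild-type and 1.86 ± 0.17 in uninjured Myd88KO tracheas. In injured tracheas it read 2.65 ± 0.18 and 1.89 ± 0.26, a difference of −0.765 (limma, adjusted p = 0.00824), and those groups did not overlap. Whether the probe lies in the deleted part is not given, so it does not check the labels. Arrays with the same replicate number lay on the same slide.

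1 array stood apart on the Trim12 probe. Injured Myd88KO replicate 1 read 1.01 on the Trim12 probe, whereas the other injured Myd88KO arrays read from −7.36 to −6.10 and injured wild-type arrays from 0.81 to 2.42. On the first of a pair of overlapping Pold3 probes, described below, its level had moved only 0.24 of the way from the injured wild-type mean to the mean of the other injured Myd88KO arrays, and on the Rab6a probe 0.56 of the way. On the other probe of that pair, called shifted, the Nup98 probe, 6430704N06 and TC1485374 the share was between 0.86 and 1.20. Other injured Myd88KO arrays were also far off on single probes, replicate 5 with a share of 0.34 on the shifted Pold3 probe and replicate 4 with 0.45 on the Nup98 probe. Over the 90 probes outside the interval that differed between uninjured genotypes, its median share was 0.98, against 0.97 to 1.11 for the other 4 arrays. What sets this array apart was not tested. Differences of named probes that lost or gained a call, or moved by over 1.5 times, without it are given both ways. Injured Myd88KO replicates 1 and 5 also had the lowest array weights of all 20 arrays, 0.319 and 0.321.

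Whether genes of the interval differed between genotypes was tested in injured tracheas. There 6 of the 294 members were differentially expressed (limma, Benjamini-Hochberg adjusted p under 0.01), where 0.38% of all 26063 tested probes passed. These calls draw on the spread of all 20 arrays. With only the injured arrays in the fit TC1485374 alone passed, beside 0.146% of all tested probes. By the methods' one-way test on them none did, beside 0.0806% of all tested probes. An unadjusted limma p under 0.05 was reached by 48 of the 294 members (16.3%), beside 12.5% of all tested probes. 4 of the 6 were lower in Myd88KO tracheas, namely a probe of the DNA polymerase delta subunit Pold3, a probe of the Golgi trafficking GTPase Rab6a, a probe of the nuclear pore protein Nup98 and the unannotated transcript 6430704N06. The others, another Pold3 probe and the transcript TC1485374, were higher. In 15 of the 294 members (5.1%) the ranges of the injured genotypes did not overlap, and this held for 1.96% of all tested probes. In 7 of those 15 the uninjured arrays were separated on the same side, which is 2.38% of the members beside 0.445% of all tested probes. These were of the genes Pold3, Rab6a, Nup98, Pgap2, 6430704N06 and TC1485374. The count of 7 uses the uninjured arrays that chose the centre, so nothing is read from it. Both counts include TC1485374, which entered the test through the group where it was high.

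In uninjured tracheas, where the centre was chosen, 5 members lay past the same cut, beside 0.384% of all tested probes, and nothing is read from that count. Without injured Myd88KO replicate 1, 4 members passed in injured tracheas, the Pold3, Rab6a and TC1485374 probes, beside 0.391% of all tested probes.

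**Figure D1:**
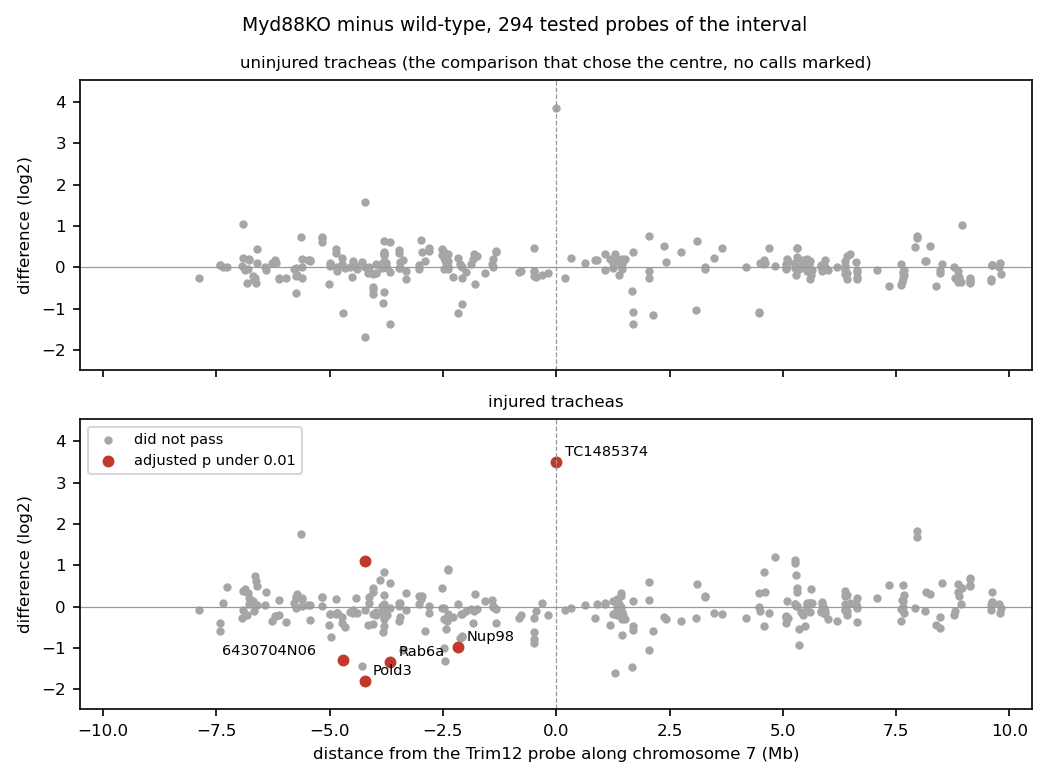
Difference between Myd88KO and wild-type levels (log2) for each of the 294 tested probes, against its distance from the Trim12 probe (Mb), in uninjured (top) and injured (bottom) tracheas; red points in the lower panel passed an adjusted p of 0.01, and no calls are marked in the upper panel, whose comparison chose the centre. Red points lie between −4.70 Mb and the centre. TC1485374, at the centre, has the largest plotted difference in both panels, against wild-type levels mostly not well above background. With a normexp background correction its injured difference was 1.48, smaller in size than the −1.57 of the first Pold3 probe.

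Pold3 encodes an accessory subunit of the polymerase that copies the lagging strand during DNA replication. A pair of its probes (chr7:96129680-96129739 and chr7:96129681-96129740, minus strand) are offset by 1 base and share 59 of their 60 bases. The first read −0.09, −0.32, −0.65, −0.31 and −0.37 in uninjured wild-type tracheas and −1.71, −2.28, −2.14, −2.17 and −1.85 in uninjured Myd88KO tracheas. After injury it read 0.35, 0.37, 0.67, 0.52 and 0.39 in wild-type and −0.04, −1.53, −1.56, −1.52 and −2.03 in Myd88KO tracheas. Every Myd88KO array was below every wild-type array of the same state.

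The shifted probe went the other way. It read −2.07, −2.74, −2.75, −2.56 and −2.64 in uninjured wild-type and −0.69, −1.23, −1.05, −1.0 and −0.88 in uninjured Myd88KO tracheas. In injured wild-type tracheas the values were −1.54, −1.93, −1.39, −1.93 and −1.78, and in injured Myd88KO tracheas −0.55, −0.45, −0.50, −0.31 and −1.28. Here every Myd88KO array was above every wild-type array of the same state.

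In injured tracheas the Pold3 probes thus differed by −1.80 (SE 0.26, adjusted p = 0.000484) and by 1.1 (SE 0.18, adjusted p = 0.00338) in limma's fit. The uninjured differences, given as a description, were −1.68 and 1.58. Without injured Myd88KO replicate 1 the injured differences were −2.12 (adjusted p = 1.27e-07) and 1.08 (adjusted p = 0.00938). With only the injured arrays in the fit neither passed (adjusted p = 0.0508 and 0.0808). The third Pold3 probe (chr7:96128410-96128469), which shares no base with them, differed by 0.02 in uninjured and by −0.09 in injured tracheas (SE 0.15 for both, adjusted p = 0.860 for the latter), or by −0.20 (adjusted p = 0.668) without injured Myd88KO replicate 1. Its levels were 1.33 ± 0.26, 1.34 ± 0.13, 1.56 ± 0.15 and 1.47 ± 0.27 (SD, n = 5) in uninjured wild-type, uninjured KO, injured wild-type and injured KO tracheas, in that order. Probes of 1 gene therefore gave a lower, a higher and a nearly equal signal in the same RNA.

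This pattern was set against other probe pairs, a comparison chosen after the values were seen. Among all tested probes of 60 bases, 41 pairs on the same strand shared at least 50 bases, and their injured genotype differences lay a median of 0.03 apart, with 95% of pairs within 0.22. For the Pold3 pair the gap was 2.89 in injured tracheas, the largest of the 41, and 3.27 in uninjured tracheas. In injured tracheas only 1 other pair had both probes passing the threshold, with the same sign, so how often signs oppose cannot be read from these pairs.

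Rab6a encodes a small GTPase of the Golgi that directs retrograde vesicle traffic. Its first probe (mapped across chr7:96682978-96685530, plus strand) read 0.46, 0.50, 0.45, 0.21 and 0.55 in uninjured wild-type and −0.94, −0.82, −1.07, −1.09 and −0.78 in uninjured Myd88KO tracheas. It read 0.51, 0.47, 0.08, −0.06 and 0.44 in injured wild-type and −0.53, −1.07, −1.30, −1.21 and −1.15 in injured Myd88KO tracheas. The genotypes did not overlap in either state. The injured difference was −1.34 (SE 0.15, adjusted p = 3.46e-05), and −1.47 (adjusted p = 4.32e-06) without injured Myd88KO replicate 1. With only the injured arrays in the fit the adjusted p was 0.0135, which missed the threshold. The uninjured difference was −1.37. Within each of the 5 slides the Myd88KO array was lower, with differences from −1.52 to −1.30 in uninjured and from −1.59 to −1.04 in injured tracheas.

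The other Rab6a probe (chr7:96687373-96687432), which does not overlap the first, averaged 3.75 ± 0.12, 3.64 ± 0.08, 3.65 ± 0.24 and 3.61 ± 0.15 (SD, n = 5) in the same order of groups. It differed by −0.12 (SE 0.13) in uninjured and by −0.04 in injured tracheas (adjusted p = 0.936), or by 0.01 (adjusted p = 0.990) without injured Myd88KO replicate 1.

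Nup98 encodes a component of the nuclear pore made as a precursor with Nup96. Of its 3 probes, the middle one (chr7:98193376-98193435) read −4.01, −3.62, −3.64, −3.51 and −3.67 in uninjured wild-type and −5.14, −4.63, −5.04, −4.71 and −4.44 in uninjured Myd88KO tracheas, where 3 of 5 arrays were well above background. In injured tracheas it read −3.93, −3.06, −3.48, −3.39 and −3.38 in wild-type and −4.57, −4.68, −4.45, −3.94 and −4.45 in Myd88KO samples, the highest Myd88KO array lying just below the lowest wild-type array. The differences were −1.10 and, in injured tracheas, −0.97 (SE 0.18, adjusted p = 0.00893). Without injured Myd88KO replicate 1 the latter was −0.93 (adjusted p = 0.0264), and the call was held in 5 of the 20 fits that each left out 1 array. With a normexp background correction, which pulls dim probes together, the differences were −0.45 and −0.43 and the injured one did not pass (adjusted p = 0.142), nor did it with only the injured arrays in the fit (adjusted p = 0.129). The other Nup98 probes differed by 0.21 and 0.08 in uninjured tracheas and by 0.07 (adjusted p = 0.886) and −0.75 (adjusted p = 0.213) in injured tracheas.

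The unannotated transcript 6430704N06 (chr7:95655738-95655797, minus strand) was the outermost of these probes, at −4.70 Mb. It read −1.77, −0.57, −0.96, −0.68 and −0.76 in uninjured wild-type and −2.22, −2.0, −1.91, −1.97 and −2.14 in uninjured Myd88KO tracheas. After injury the values were −0.84, −0.86, −1.81, −0.39 and −1.30 in wild-type and −2.47, −2.12, −2.38, −2.38 and −2.25 in Myd88KO tracheas. The genotypes were separated in both states. The injured difference was −1.28 (SE 0.23, adjusted p = 0.00674), held in 7 of 20 leave-one-out fits, and it was −1.24 (adjusted p = 0.0203) without injured Myd88KO replicate 1. It missed the threshold narrowly with normexp (−1.0, adjusted p = 0.0102) and with only the injured arrays in the fit (adjusted p = 0.0789).

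TC1485374 (chr7:100357683-100357742, plus strand) starts 0.001 Mb from the Trim12 probe and is described on the array as a partial match to a tripartite motif protein, although its name did not exclude it. It read −4.83, −6.33, −5.46, −5.0 and −4.97 in uninjured wild-type tracheas, never well above background, and −1.02, −2.26, −1.82, −0.93 and −1.30 in uninjured Myd88KO tracheas, a level at least 10.3-fold higher. In injured tracheas it read −4.38, −6.49, −5.36, −6.10 and −4.65 in wild-type, with 2 of 5 arrays well above background, and −2.30, −2.85, −1.20, −1.60 and −1.51 in Myd88KO samples. The probe was well above background on all 10 Myd88KO arrays and on only those 2 wild-type arrays, so it entered the test through the group where it was high, and its call is no support for the count of members. Without it 5 members passed in injured tracheas. The injured difference in limma's fit was 3.50 (SE 0.41, adjusted p = 4.83e-05), set against wild-type levels mostly not well above background. It was 1.48 with a normexp background correction, and 3.60 (adjusted p = 0.000124) without injured Myd88KO replicate 1. On the Trim12 probe itself, by which the interval was centred, the signal was lower in Myd88KO tracheas, with uninjured means of 1.54 ± 0.40 in wild-type and −6.63 ± 0.89 in Myd88KO samples.

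**Figure D2:**
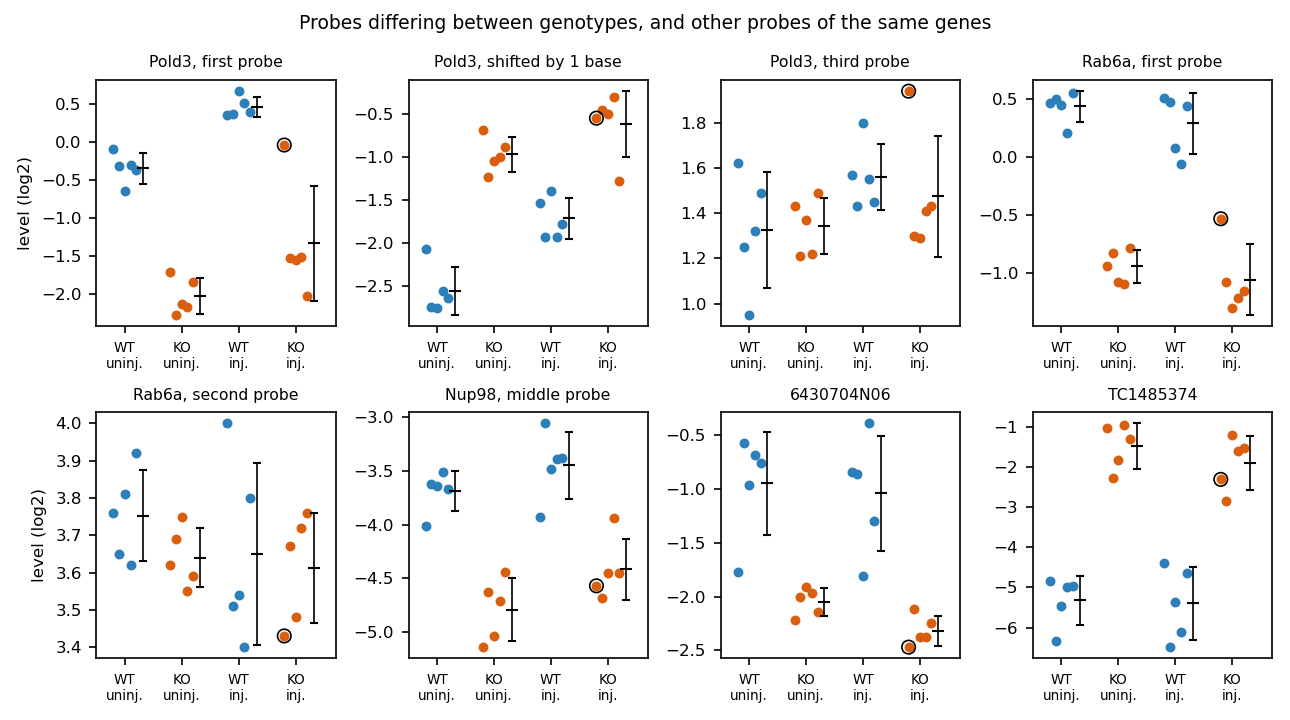
Level (log2) on every array for the 6 probes that differed between injured genotypes and for the further tested Pold3 and Rab6a probes, by group; points are arrays, the horizontal tick and bar are mean ± SD (n = 5), and the circle marks injured Myd88KO replicate 1. The 2 overlapping Pold3 probes run in opposite directions and the third does not separate the genotypes.

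Over the 294 members the median size of the uninjured difference was 0.17 and of the injured difference 0.21, beside 0.15 and 0.205 over all tested probes. Of the 98 members tested from 6430704N06 to TC1485374, a span of 4.70 Mb, 6 passed the threshold in injured tracheas and 92 did not. The ends of that span were set by probes that passed. Of the 143 further from the centre than 5 kb on the higher-numbered side, over 9.62 Mb, 0 passed in injured tracheas in limma's fit, where 0.38% of all tested probes did, and the smallest adjusted p was 0.0525, for Hpx. By the unadjusted limma p under 0.05, 48 members passed in injured tracheas (16.3%, beside 12.5% of all tested probes), 22 of them among those 143. Pgap2, which remodels lipid anchors of membrane proteins, had uninjured differences of −0.88 on 1 probe and −0.27 on another, and its injured differences were −0.70 (adjusted p = 0.0671) and −0.17 (adjusted p = 0.687).

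In the 67 member genes with more than 1 tested probe, the largest and smallest uninjured differences lay a median of 0.13 apart, and more than 1 unit apart in 5 genes. These were Pold3 (3.27), the interferon-inducible GTPase Gvin1 (1.75), Nup98 (1.32), Rab6a (1.26) and LOC668139 (1.02). In injured tracheas the median over the 67 genes was 0.305. The uninjured comparison chose the centre and the same count was not made over all genes, so nothing is read from the 5. The 3 Gvin1 probes differed by −1.09, −1.38 and 0.38 in uninjured and by −0.55, −0.47 and 0.15 in injured tracheas (adjusted p = 0.755, 0.783 and 0.938).

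Arfip2 and Nrip3, like Rab6a, are on a gene list that the study chose from these same samples, so their direction here is not independent evidence. Arfip2 encodes a partner of Arf and Rac GTPases, and its probes differed by 0.19 and 0.17 in uninjured and by −0.07 (adjusted p = 0.871) and 0.01 (adjusted p = 0.985) in injured tracheas, or by 0.02 and 0.10 (adjusted p = 0.980 and 0.868) without injured Myd88KO replicate 1. The Nrip3 probe, for a nuclear receptor interacting protein, differed by 0.48 and 0.45 (adjusted p = 0.320), and its genotypes overlapped in both states. Tenm4, the first tested member at −7.89 Mb, differed by −0.26 (SE 0.37) in uninjured tracheas, and Fam181b, the nearest tested probe outside at −11.2 Mb, by 0.53 (SE 0.22). At the far edge Psma1, at 9.82 Mb, differed by −0.15 (SE 0.17), and Pde3b, just outside at 10.1 Mb, by 0.40 (SE 0.16).

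Compared with other stretches, 6 of 294 members (2.04%) differed between injured genotypes, beside 7 of 209 tested probes (3.35%) within 10 Mb of the Myd88 probe on chromosome 9 and 1 of 1540 (0.0649%) on the rest of chromosome 7. These counts were not tested against each other. Across the 294 members the uninjured and injured differences, which share no array, correlated with a Pearson r of 0.46 and a Spearman rho of 0.07, and over the 288 members that did not pass in injured tracheas Pearson r was 0.17. Members share arrays and neighbouring probes share genes, so these are descriptions. The signs matched in 144 of 294 members (49.0%). Over all tested probes Pearson r was 0.12 and Spearman rho −0.14, and the signs matched in 41.4%.

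The injury responses were not used in choosing the interval, but they share the uninjured arrays with the comparison that chose the centre. In wild-type tracheas 20 member probes of 17 genes changed 3 days after injury (6.8% of the 294, beside 5.26% of all tested probes). 11 rose, where 3.24% of all tested probes rose, and 9 fell, where 2.03% fell. Rises were led by Chrdl2, Hpx, P2ry6, Rrm1 and Folr2, and falls by Lrrc51, Ascl3, Syt9, Olfr559 and Wnt11. In Myd88KO tracheas 1 member, Far1, changed, where 0.376% of all tested probes did.

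**Figure D3:**
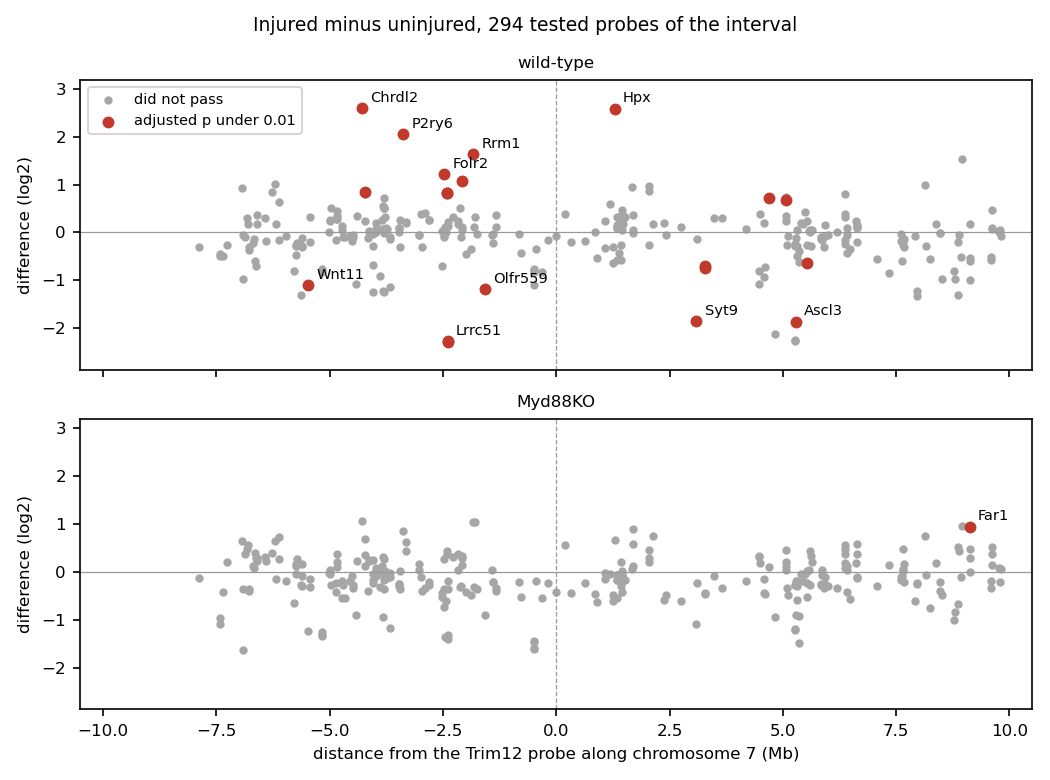
Difference between injured and uninjured levels (log2) for each of the 294 tested probes, against its distance from the Trim12 probe (Mb), in wild-type (top) and Myd88KO (bottom) tracheas; red points passed an adjusted p of 0.01. The 20 red points in wild-type tracheas lie on both sides of the centre, and Far1 is the only one in Myd88KO tracheas.

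Hpx encodes hemopexin, the plasma protein that binds free heme. Its probe (chr7:101648211-101648270, minus strand) read −3.77, −4.15, −4.31, −3.89 and −3.82 in uninjured wild-type and −1.25, −2.70, −1.61, −1.90 and 0.46 in injured wild-type tracheas, a rise of 2.59 (SE 0.37, adjusted p = 0.00038). In Myd88KO tracheas it read −3.66, −4.0, −3.59, −3.72 and −3.37 without and −3.37, −2.75, −3.15, −2.64 and −3.09 with injury, a difference of 0.67 (adjusted p = 0.336). The injured wild-type arrays were widely spread and all lay above the uninjured ones. The response differed between genotypes by −1.92 (SE 0.53, unadjusted p = 0.00162, adjusted p = 0.391), which did not pass the threshold.

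Chrdl2, an extracellular antagonist of bone morphogenetic proteins, read −3.95, −3.15, −3.03, −2.98 and −2.87 in uninjured and −0.14, −0.50, −1.12, −0.33 and −0.88 in injured wild-type tracheas, a rise of 2.60 (SE 0.53, adjusted p = 0.00359). Injured Myd88KO tracheas ranged from −4.44, in replicate 1, to −0.45, and their difference from uninjured ones was 1.06 (adjusted p = 0.280), or 1.66 (adjusted p = 0.0296) without replicate 1. The Chrdl2 call in wild-type tracheas was lost on leaving out uninjured or injured wild-type replicate 1. Wnt11, a secreted Wnt ligand, went from 0.10 ± 0.27 to −1.0 ± 0.04 (SD, n = 5, difference −1.10, adjusted p = 0.00531), and its Myd88KO difference was −1.24 (adjusted p = 0.0114). Among the 21 tested probes for matrix, adhesion and secreted signals, 1 rose and 1 fell in wild-type tracheas (beside 3.24% and 2.03% of all tested probes), with a median of −0.01, where the median of all tested probes was 0.00.

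P2ry6, a receptor for extracellular UDP found on macrophages, read 1.30, 0.30, 0.28, 0.49 and 1.09 in uninjured and 3.65, 2.50, 2.05, 2.25 and 3.32 in injured wild-type tracheas, a rise of 2.06 (SE 0.36, adjusted p = 0.00146). Folr2, the folate receptor of tissue macrophages, read 0.77, 0.66, 0.57, 0.62 and 0.77 and then 1.33 to 2.40, a rise of 1.22 (SE 0.26, adjusted p = 0.00459), and the GTPase Rhog rose by 1.07 (adjusted p = 0.00643). Their Myd88KO differences were 0.85, 0.26 and 0.32 (adjusted p = 0.207, 0.623 and 0.488), and that of Rhog was 0.52 (adjusted p = 0.203) without injured Myd88KO replicate 1. These 3 were the members that passed among 23 tested probes for immune and nucleotide signalling, beside 5.26% of all tested probes, and the median of the 23 was 0.09. All 3 tested macrophage markers of a list of 4 names (Cd68, Csf1r and the gene called Emr1 or Adgre1) also rose in wild-type tracheas, their summed level ranging from 1.92 to 2.19 without and from 3.27 to 4.74 with injury. In Myd88KO tracheas it ranged from 1.78 to 2.49 and from 1.51 to 4.22. In RNA of whole tissue, a change in the number of cells and a change in RNA per cell cannot be told apart, and the part of the macrophage markers in these rises was not tested.

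Rrm1, the large subunit of ribonucleotide reductase, which makes DNA precursors, read 1.58, 1.14, 1.78, 1.13 and 1.66 in uninjured and 3.08, 3.08, 3.30, 3.22 and 2.79 in injured wild-type tracheas, a rise of 1.64 (SE 0.23, adjusted p = 0.000306). Its Myd88KO difference was 1.05 (adjusted p = 0.0199). Both probes of Anapc15, a subunit of the anaphase-promoting complex, rose by 0.83 (adjusted p = 0.00273 and 0.00274), and the shifted Pold3 probe rose by 0.84 (adjusted p = 0.00586), its neighbour differing by 0.81 (adjusted p = 0.0422, or 0.00189 in the fit without injured Myd88KO replicate 1) and the third Pold3 probe by 0.23 (adjusted p = 0.341). With normexp the rise of the shifted probe was 0.57 (adjusted p = 0.0196) and did not pass. With these, 4 of 35 tested probes for cell cycle and nucleus rose in wild-type tracheas and 0 fell, beside 3.24% and 2.03% of all tested probes, with a median of 0.03. Rpl27a, of the large ribosomal subunit, rose by 0.68 (adjusted p = 0.00752), the only one of 12 tested probes for translation that passed (beside 5.26% of all tested probes), while its other probe differed by 0.34 (adjusted p = 0.127). The Rpl27a call was lost with normexp (0.38, adjusted p = 0.0473) and without any single wild-type array.

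Lrrc51, a leucine-rich repeat gene, had the largest falls among the members that passed. Its first probe (chr7:97959665-97959724) read 2.18, 1.47, 0.64, 1.42 and 1.31 in uninjured and −1.60, −0.47, −0.80, −0.05 and −1.48 in injured wild-type tracheas, a difference of −2.28 (SE 0.49, adjusted p = 0.00517), and its other probe differed by −2.27 (adjusted p = 0.00559). In injured Myd88KO tracheas the first probe read 1.62, −1.40, −0.29, −1.31 and 1.40, so replicates 1 and 5 lay in the range of uninjured wild-type tracheas and the others below it. The 4 ciliated-cell markers (Foxj1, Dnah5, Tekt1 and Ccdc113) had a summed level from 4.18 to 5.52 in uninjured and from 1.32 to 5.40 in injured wild-type tracheas, and 1 of them fell past the threshold. In injured Myd88KO tracheas the sum ranged from 1.35 to 6.93, and replicates 1 and 5 stood at 6.93 and 5.25. The part of the ciliated-cell markers in the Lrrc51 values was not tested. Stk33, a kinase, differed by −2.12 in wild-type tracheas (adjusted p = 0.0439) and read 2.33 and 1.03 in those same injured Myd88KO replicates, where the others lay between −1.85 and 0.18.

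Ascl3, a transcription factor of ionocytes and of gland duct cells, read −2.13, −1.95, −2.47, −2.33 and −1.87 in uninjured and −4.47, −3.64, −3.83, −3.26 and −4.87 in injured wild-type tracheas (difference −1.87, SE 0.39, adjusted p = 0.00456). Its Myd88KO difference was −0.90 (adjusted p = 0.216), with injured replicate 5 at −1.47 above all uninjured Myd88KO arrays. Syt9, a calcium sensor of vesicle release, went from −2.56 ± 0.22 to −4.41 ± 0.85 (SD, n = 5) in wild-type tracheas (difference −1.86, adjusted p = 0.00102) and differed by −1.08 in Myd88KO tracheas (adjusted p = 0.0599). Olfr559, an olfactory receptor, differed by −1.18 (adjusted p = 0.00552), and only 2 of 5 injured wild-type arrays were well above background there. With the normexp background correction these 3 differences were −0.99, −0.87 and −0.46, and of them Syt9 passed (adjusted p = 0.00139) and Ascl3 and Olfr559 did not (adjusted p = 0.0114 and 0.149). Of the 27 tested probes for nerve, muscle and sensory genes 1 rose, the LIM-domain factor Lmo1 (0.73, adjusted p = 0.00737), and 1 fell, beside 3.24% and 2.03% of all tested probes, with a median of 0.00.

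Ppfibp2, a scaffold protein of the liprin family, differed by −0.74 and −0.71 on its probes (adjusted p = 0.00245 and 0.00494), and Tmem41b, a lipid scramblase of the endoplasmic reticulum, by −0.64 (adjusted p = 0.00789) on 1 probe and by −0.27 and 0.23 (adjusted p = 0.239 and 0.355) on the others. The Tmem41b call was lost with normexp (−0.38, adjusted p = 0.0885) and without any single wild-type array. Tmem41b was the 1 probe that fell among 33 tested for vesicles and lysosomes, where 2.03% of all tested probes fell. None of 26 tested probes for mitochondria and energy metabolism passed in either genotype by limma at an adjusted p of 0.01, while 12 in wild-type and 9 in Myd88KO tracheas had an unadjusted p under 0.05, beside 26.4% and 19.5% of all tested probes. Dgat2 and Thrsp, of triglyceride synthesis and its control, came closest in Myd88KO tracheas, with −1.35 for the first Dgat2 probe (adjusted p = 0.0148) and −1.64 for Thrsp (adjusted p = 0.0191). Both passed without injured Myd88KO replicate 1 (−1.59 and −1.92, adjusted p = 0.00542 and 0.00881), and that Dgat2 probe also passed with normexp (adjusted p = 0.00967). Neither passed with only the Myd88KO arrays in the fit (adjusted p = 0.101 and 0.0671) or by the methods' one-way test (0.178 and 0.144). The other Dgat2 probes differed by −1.26 and −1.33 in Myd88KO tracheas (adjusted p = 0.0452 and 0.0462). In wild-type tracheas the first Dgat2 probe and Thrsp differed by −0.76 and −0.97 (adjusted p = 0.0782 and 0.0791). Uninjured Thrsp levels averaged 3.82 in wild-type and 4.86 in Myd88KO tracheas. The summed level of the 4 adipocyte markers ran from 5.39 to 6.22 and from 6.45 to 6.86 in these groups, and its part was not tested.

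The beta-globin cluster lies between −0.49 and −0.45 Mb from the centre, and 5 of its 7 probes were tested. None of the 5 passed between genotypes or after injury in limma's fit, while 2 in wild-type and 4 in Myd88KO tracheas had an unadjusted p under 0.05 for injury, where 26.4% and 19.5% of all tested probes did. The 4 probes of Hbb-bt, an adult beta-globin, share overlapping or neighbouring sequence, and their wild-type injury differences ran from −1.10 to −0.77 and their Myd88KO injury differences from −1.62 to −1.45, with the smallest adjusted p at 0.0322. That smallest p belongs to a probe that passed in Myd88KO tracheas with the slide (adjusted p = 0.00921) or the scan day (0.00551) as a block. It also passed with array weights (0.00291) and without injured replicate 5 (0.00548) or replicates 1 and 5 (0.00197). Of all tested probes 7.29%, 4.12% and 7.55% passed with array weights, without replicate 5 and without both, against 0.376% in the main fit. No Hbb-bt probe passed with only the Myd88KO arrays in the fit (adjusted p from 0.101 to 0.207). By the methods' one-way test none did either (adjusted p from 0.182 to 0.301). The other Hbb-bt probes also passed without replicates 1 and 5 (adjusted p = 0.000793, 0.00239 and 0.00368). With array weights their adjusted p was 0.00334, 0.00681 and 0.0105, so the last did not pass. Without injured Myd88KO replicate 1 the Hbb-bt differences in Myd88KO tracheas ran from −2.03 to −1.72. On the probe at chr7:99864305-99864363, injured Myd88KO replicates 1 and 5 read 6.22 and 5.65, whereas the other 3 read 4.01, 3.78 and 4.24. The summed level of the 3 tested red-cell markers outside the interval ran from 3.89 to 5.71 in uninjured and from 2.51 to 4.36 in injured Myd88KO tracheas, and its part in the globin values was not tested.

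Far1, a peroxisomal enzyme that makes fatty alcohols, was the 1 member that changed in Myd88KO tracheas. Its probe (mapped across chr7:109482522-109484163) read −1.35, −1.25, −1.49, −1.03 and −1.46 in uninjured and −0.56, −0.59, −0.25, −0.04 and −0.41 in injured Myd88KO tracheas, a rise of 0.94 (SE 0.15, adjusted p = 0.00516). The groups did not overlap. With only the Myd88KO arrays in the fit it did not pass (adjusted p = 0.0635). In wild-type tracheas it differed by 0.17 (adjusted p = 0.520), and the responses differed by 0.78 (SE 0.21, unadjusted p = 0.00179, adjusted p = 0.391). The Far1 call was held in 13 of 20 leave-one-out fits, and lost without uninjured Myd88KO replicate 1, 2, 3 or 5 or without injured Myd88KO replicate 2, 3 or 4. The other 3 tested Far1 probes differed by 0.29, 0.48 and 0.00 in Myd88KO tracheas (adjusted p = 0.598, 0.320 and 0.998). In wild-type tracheas they differed by −0.60, −0.53 and −1.0 (adjusted p = 0.163, 0.200 and 0.0688), against the sign of the first probe.

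No member passed the test of a difference in injury response between genotypes, nor did any of the 26063 probes (0.0%) in limma's fit. By the unadjusted p under 0.05, 29 members did (9.86%), where 10.4% of all tested probes did. The 20 probes that changed in wild-type tracheas had Myd88KO differences of the same sign in 20 of 20 cases, and the difference was larger in wild-type tracheas in 19 of them, all but Wnt11. They were selected on the wild-type values, and 6 of the 20 had an unadjusted p under 0.05 for the difference in response. Without injured Myd88KO replicates 1 and 5, a setting chosen after seeing the data, 27 members changed in Myd88KO tracheas, and without replicate 5 alone 14 did. Over all tested probes the shares in these settings were 7.55% and 4.12%, against 0.376% in the main fit.

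**Figure D4:**
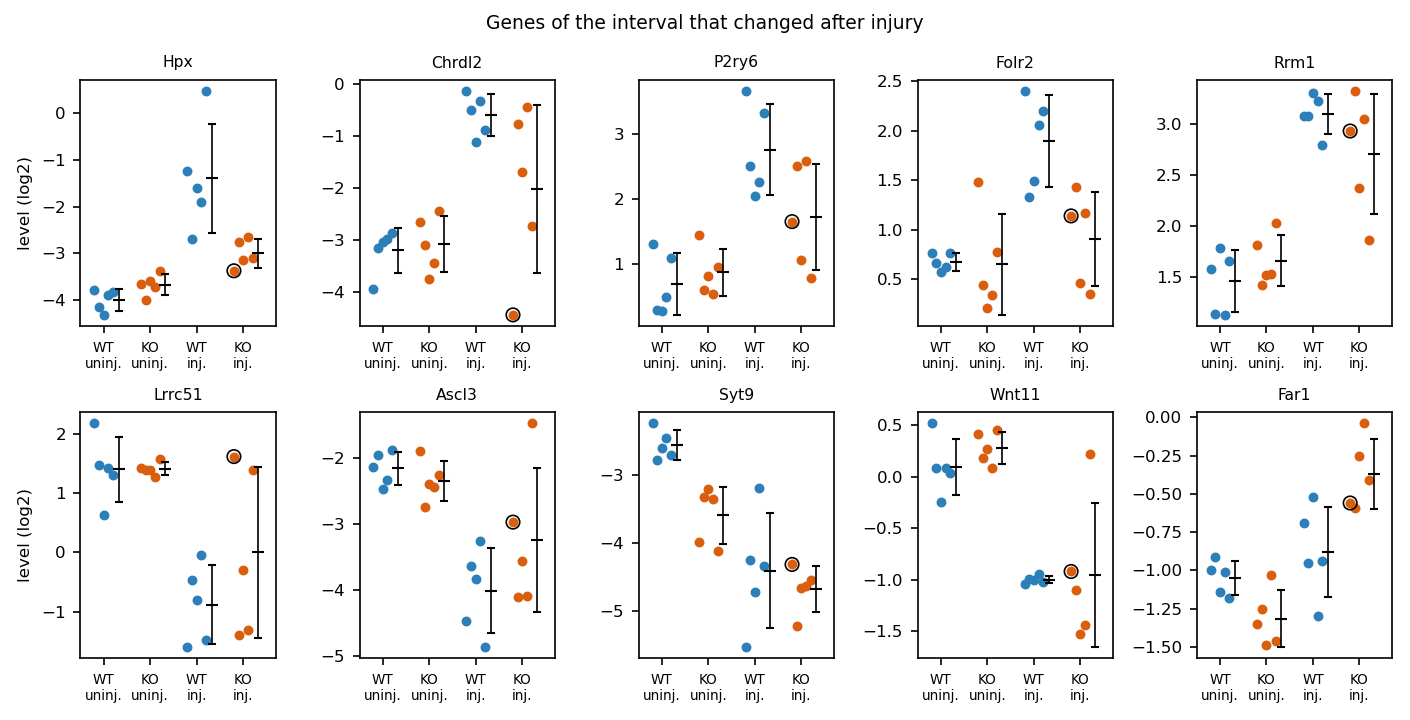
Level (log2) on every array for 10 of the genes named for their injury response, by group; points are arrays, the horizontal tick and bar are mean ± SD (n = 5), and the circle marks injured Myd88KO replicate 1. Injured wild-type arrays are separated from uninjured ones for every gene but Far1, and in injured Myd88KO tracheas the arrays of Lrrc51 and Chrdl2 are widely spread.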

How the data were processed

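The deposited scanner files, made by the authors with Agilent Feature Extraction (version 9.5.1.1 per the file headers), give background-corrected and processed spot intensities for 45018 spots per array, of which 1639 are controls. A deposited value table of the series, also in intensity units, equalled the processed signal within a ratio of 0.996 to 1.004. Positions are those printed in the files, whose genome build is not given in the sources used here.

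Control spots and outlier-flagged values were left out, spots of a probe were averaged as log2, and each array was scaled to its 75th percentile. Probes well above background on at least 10 of 20 arrays were tested (26063 of 41174). Limma 3.58.1 in R 4.3.3 was fitted on all 20 arrays with 4 group means, and p-values were adjusted by Benjamini-Hochberg over all tested probes within a comparison. The number of arrays limits the precision. p-values set a difference against the spread between samples within groups, pooled over the 4 groups and moderated across probes by limma. The fit was also run on simulated data with known changes, drawn with independent noise of the uninjured wild-type spread. That run held no slide effect and no array that stood apart, so it gives no support for the calls. Gene names were updated through RefSeq tables: of the 557 member probes, accessions matched 381, current symbols 45 and former symbols 35, and 96 kept the array's name.

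Of 5 slides, each held 1 array of each group with 1 replicate number, as the file headers show. Same-numbered uninjured wild-type and Myd88KO arrays correlated by 0.252 to 0.476 in their deviations from the group means. Injured ones correlated by −0.219 to 0.332. Arrays with different numbers were not compared, so how far the slide pairs the groups was not tested. Arrays were scanned on 2 days, those of slides 1 and 5 on the later day. No column of another sample was used (0 columns).

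The members, gene lists and tests were chosen with earlier results of these data known. Named genes are those with a probe differing between genotypes, with their other probes, the 5 largest rises and falls after wild-type injury with groups that do not overlap, the largest changes in Myd88KO tracheas, the beta-globins, the genes of the study's list, the edge probes, and up to 3 genes of each role list. Pgap2, Gvin1, LOC668139, Anapc15, Rhog, Ppfibp2, Lmo1 and Dgat2 were added after their values were seen. Alternatives covered background correction, scaling, filters, blocks for slide and scan day, array weights, the methods' one-way test, the value table, the threshold, the width and each array left out. Of the marker lists, the 3 tested members for macrophages rose and 2 of 4 for club cells and 1 of 4 for ciliated cells fell after wild-type injury, 1 of 4 for club cells fell after Myd88KO injury, and no member of the other lists (basal, cartilage, smooth muscle, red cells, neutrophils, adipocytes, skeletal muscle, thyroid, lymphocytes) passed in any comparison.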

Additional observations from a re-analysis of the deposited data

Results flagged for a closer look

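Values far from the other 4 arrays of their group, by Dixon's criterion for 5 samples, were found in 11 of 116 groups (29 probes of the named genes in 4 groups each), where chance gives about 1 in 20. 3 of them are on injured Myd88KO replicate 1: the first Pold3 probe at −0.04 (others −2.03 to −1.52), the third Pold3 probe at 1.94 (others 1.29 to 1.43) and an Arfip2 probe at 0.47 (others 0.85 to 0.97). On injured Myd88KO replicate 5 the shifted Pold3 probe stood at −1.28 (others −0.55 to −0.31).

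On uninjured wild-type replicate 1, Chrdl2 stood at −3.95 (others −3.15 to −2.87) and the shifted Pold3 probe at −2.07 (others −2.75 to −2.56). On uninjured wild-type replicate 4, Rab6a stood at 0.21 (others 0.45 to 0.55) and a Nup98 probe at −1.79 (others −2.11 to −2.02). Arfip2 probes stood at 0.02 on uninjured wild-type replicate 3 (others 0.28 to 0.36) and at 0.93 on replicate 2 (others 0.59 to 0.68). On injured wild-type replicate 1 an Hbb-bt probe stood at 3.44 (others 2.25 to 2.51). The causes were not tested.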

How the results depend on the processing

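Of 2255 values of named genes under alternative settings, 2071 kept their side of the threshold, 149 lost a call, 35 gained one and 0 reversed a called direction. Members past the cut between uninjured genotypes, the comparison that chose the centre, numbered 5, where 0.384% of all tested probes passed. They numbered 3 where a probe had to be well above background on all 20 arrays, where 0.29% passed. With each array left out they ran from 4 to 6, where 0.28% to 0.414% passed. Members differing between injured genotypes numbered 6. With only the compared groups in the fit the count was 1, and by the methods’ one-way test it was 0, beside 0.146% and 0.0806% of all tested probes. At an unadjusted limma p under 0.05 it was 48 (16.3%), beside 12.5% of all tested probes. With each array left out the count ran from 3 to 6. It was 3 without injured wild-type replicate 4 or 5 or injured Myd88KO replicate 3, where 0.315%, 0.295% and 0.299% of all tested probes passed.

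Members changed after wild-type injury numbered 20, beside 5.26% of all tested probes, or 36 at an adjusted p under 0.05. At that looser cut the share of all tested probes was not counted. With array weights 31 changed, where 9.97% of all tested probes did. Without injured Myd88KO replicates 1 and 5 (chosen after seeing the data) 31 members changed, where 9.12% of all tested probes did. With each array left out the member count ran from 7 to 22. It was 7 without uninjured replicate 4 or injured replicate 1, where 2.56% and 2.58% of all tested probes passed. It was 9 or 10 without uninjured replicate 1, 2 or 5 or injured replicate 5, where 2.55% to 3.55% passed. Without injured replicate 3 or 4 it was 12 or 13, where 3.72% and 4.08% passed. The count of 22 was without injured Myd88KO replicate 1 or 5, where 5.96% and 7.07% passed. Members changed after Myd88KO injury numbered 1. They were 2 with normexp or with no filter, where 0.51% and 0.146% of all probes in those fits passed. They were 0 with only the compared groups, by the one-way test or within 5 Mb. They were 4 with scan day as a block, 28 with array weights, 14 at an adjusted p under 0.05 and 27 without injured replicates 1 and 5. Of all tested probes, 1.39% passed with scan day as a block, 7.29% with array weights and 7.55% without those replicates. The share at an adjusted p under 0.05 was not counted. With each array left out the member count ran from 0 to 14. It was 14 without injured replicate 5, where 4.12% of all tested probes passed, and 3 without injured replicate 1, where 0.219% did. The 0 without uninjured replicate 1, 2, 3 or 5 or injured replicate 2, 3 or 4 is the loss of Far1. With the replicate number, which is the slide, as a block, 5 members passed between uninjured and 6 between injured genotypes. After injury 20 passed in wild-type and 3 in Myd88KO tracheas, and 0 for the difference in response. Of all tested probes 0.388%, 0.43%, 5.94%, 0.549% and 0.00384% passed in these comparisons, in that order. Only the Myd88KO count moved by over 1.5 times. Of the 20 in wild-type tracheas, 17 were among the 20 of the main fit. Rpl27a and the second of the Lrrc51 probes were among those lost. The member count for the difference in injury response stayed at 0 under every alternative run.

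Leaving out 1 array, the injured Rab6a, first Pold3 and TC1485374 differences kept their calls in 20 of 20 fits, and the shifted Pold3 probe in 14, losing it without injured wild-type replicate 2, 4 or 5 or injured Myd88KO replicate 2, 3 or 4. Hpx, P2ry6, Rrm1 and Syt9 kept their wild-type injury calls in 20 of 20, Chrdl2 in 18, Folr2 in 15, Ascl3 in 14, both Lrrc51 probes, Olfr559 and the shifted Pold3 probe in 13, Rhog in 12, Wnt11 in 11, Lmo1 in 10, Tmem41b in 8 and Rpl27a in 7. Both Anapc15 probes kept theirs in 19, and the Ppfibp2 probes in 20 and 14. By the methods' one-way test 15 members passed after wild-type injury, where 4.02% of all tested probes did. Of these 15, 12 were among the 20 of the main fit. Hpx, P2ry6, Folr2 and Syt9 did not pass by it (adjusted p = 0.0196, 0.0125, 0.0101 and 0.0211). Nor did the second Lrrc51 probe (adjusted p = 0.0137), the shifted Pold3 probe (0.0164), the first Ppfibp2 probe (0.0199) and Lmo1 (0.0115). The normexp correction, which adds an offset of 50, brought dim probes closer together, as with TC1485374 (1.80 uninjured) and Hpx (1.44). No probe sequence was used, and the part of probe pairing in the genotype differences was not tested.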
